A study of Mus musculus with 32 samples.

Results

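The second hour of the response to lipopolysaccharide (LPS) was followed in dendritic cells grown from the bone marrow of wild-type (WT) mice. The members were the 4 libraries labelled WT at 2 h of LPS and the 4 labelled WT at 1 h, chosen by their titles, 8 of the 32 libraries of the series. The cells came from C57BL/6 mice, were grown with GM-CSF, received LPS at 1 µg/mL on culture day 9 and carried no deletion. Cells at 6 h of LPS and without LPS (0 h) served as context, 4 WT libraries each. The same times were sampled in dKO cells, which carry the genotype Lmp7-/-Mecl1-/- and so lack 2 immunoproteasome subunits. The questions were which genes raised in the first hour already declined in the second, and which interferon-driven genes began to rise then.

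LPS, a component of the outer membrane of Gram-negative bacteria, signals through TLR4. One branch, through MyD88, acts within minutes on NF-kB and MAP kinases and raises immediate-early transcription factors, cytokines and their own inhibitors, many of whose mRNAs decay quickly. The other branch, through TRIF and IRF3, raises interferon beta, which is secreted and acts back on the cells through its receptor and transcription factors that include STAT2 and IRF9 to raise antiviral genes in a later wave.

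Expression was measured by RNA sequencing and deposited as RPKM, reads scaled to gene length and library total. Depth was 1.32 to 1.68 Gb of aligned bases per library at 2 h and 1.41 to 1.58 Gb at 1 h. Each of the 8 lay nearest to the WT mean of its own time. Markers of the labelled cell type were present: the summed level of 13 dendritic cell markers was 22515 to 24977 RPKM at 2 h and 17612 to 20149 RPKM at 1 h (Ccl17 and Ccl22, themselves LPS-responsive, are among them). The members did not all follow the sum. Of 12 tested, 3 rose and 5 fell, beside 15.4% and 59.4% of all tested genes. With median-of-ratios scaling 7 rose and 2 fell, beside 30.8% and 34.7% of all tested genes. Macrophage markers summed to 1323 to 1457 RPKM at 2 h and 1384 to 1643 RPKM at 1 h. Markers of B, NK and erythroid cells summed to at most 2.35 RPKM in any library. T cell markers summed to 2.16 to 2.54 RPKM at 2 h and 0.915 to 1.69 RPKM at 1 h; Cd3e, which encodes a chain of the T cell receptor complex, was at 0 in all 8, and the kinase gene Lck, under the filter and not tested, averaged 0.968 RPKM at 2 h and 0.153 RPKM at 1 h. Granulocyte markers summed to 913 to 1184 RPKM at 2 h and 841 to 1269 RPKM at 1 h, and eosinophil markers to 955 to 1572 RPKM at 2 h and 967 to 1370 RPKM at 1 h. Markers of plasmacytoid dendritic cells summed to 327 to 361 RPKM at 2 h and 247 to 270.2 RPKM at 1 h, without overlap, and all 3 tested (Bst2, Tcf4 and Ly6c2) rose, while Siglech, which defines these cells, averaged 0.192 RPKM at 2 h and 0.423 RPKM at 1 h. Bst2 is also an interferon-stimulated gene. Mast cell and basophil markers summed to 12.04 to 16.4 RPKM at 2 h and 17.5 to 22.7 RPKM at 1 h, and 2 of 5 tested fell (0 with median-of-ratios scaling). The part of these markers in the results below was not tested. Nothing in the labels says that the 4 libraries of a time came from separate mice, so p-values measure the spread between libraries, which may be technical.

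A total of 10026 genes reached 1 RPKM in at least 4 of the 8 libraries and were tested with limma on log2(RPKM + 0.5). In the second hour 7502 genes (74.8%) passed an adjusted p of 0.05, of which 1546 (15.4%) were higher and 5956 (59.4%) lower at 2 h. Because so many genes passed, a change of at least 2-fold was also required for the counts that follow: 389 genes (3.88%) were higher by that much and 755 (7.53%) lower. The whole table was shifted, with a median log2 change of -0.30 over all genes tested, and a log2 change near that value is a gene moving with the bulk. The 1546 higher genes held 36.9% ± 0.486 of all RPKM at 2 h and 24.1% ± 0.744 at 1 h (SD, n = 4 each). With median-of-ratios scaling, which puts the middle of the table near 0 (median -0.04), 3085 genes (30.8%) were higher and 3476 (34.7%) lower, and 591 (5.89%) and 332 (3.31%) by at least 2-fold. Without regard to the test, 13.8% of genes had all 4 values at 2 h above all 4 at 1 h, and 51.9% had them all below. In bulk RNA, fewer cells of a type and less RNA per cell cannot be told apart.

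**Figure D1:**
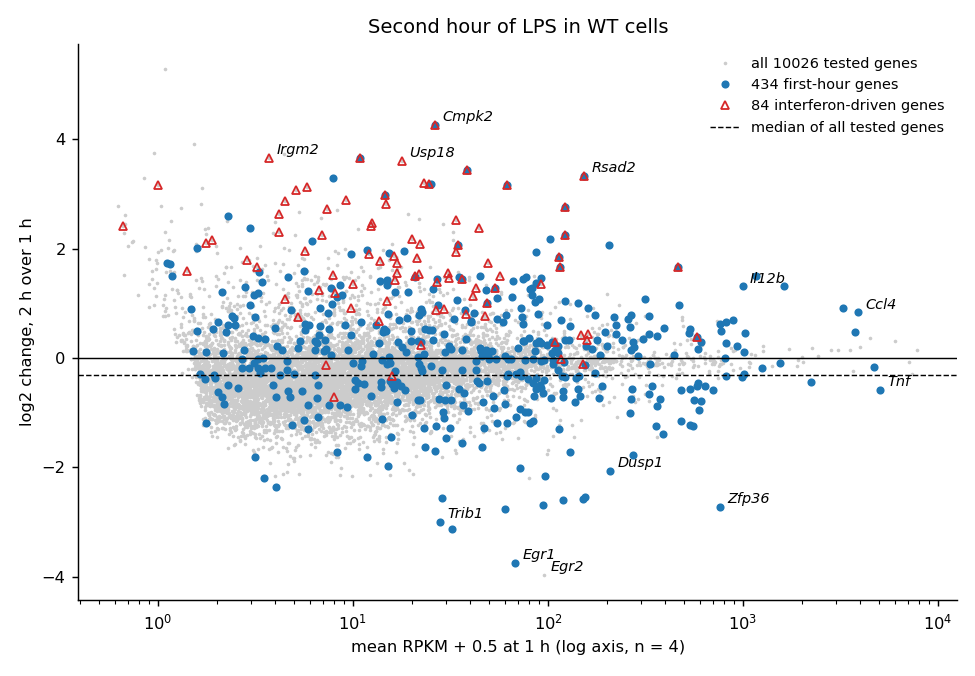
Each point is 1 of 10026 tested genes; the x axis is the mean RPKM + 0.5 at 1 h (log axis, 4 libraries) and the y axis is the log2 change at 2 h over 1 h. First-hour genes (blue) lie on both sides of the dashed median of -0.30, while 79 of 84 interferon-driven genes (red triangles) were called higher.

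Genes of the first hour were defined as those called higher at 1 h than at 0 h by at least 2-fold, which gave 434 (4.33% of those tested). In that step 1232 genes (12.3%) were called higher and 6960 (69.4%) lower, 982 (9.79%) of them lower by at least 2-fold. In the following hour 154 of the 434 fell, 183 rose and 97 were not called. The shares were 35.5%, 42.2% and 22.4%, against 59.4%, 15.4% and 25.2% of all tested genes. By at least 2-fold, 50 (11.5%) fell and 74 (17.1%) rose, against 7.53% and 3.88% of all genes. The 1 h libraries enter both steps, so these counts are descriptions. Genes defined in dKO cells instead numbered 420, with 361 in common with the WT set (83.2% of the WT set and 86.0% of the dKO set). Here 2 dKO libraries, 1 at 1 h and 1 at 0 h, were left out because they lay nearest to the WT mean of another time, so the libraries kept were selected for likeness to WT and the overlap is a description. Of these 420, 152 fell and 189 rose in the second hour of WT cells, 48 and 82 of them by at least 2-fold. Under median-of-ratios scaling the same 434 genes divided into 110 that fell, 238 that rose and 86 not called. Those shares were 25.3%, 54.8% and 19.8%, against 34.7%, 30.8% and 34.6% of all tested genes.

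Decline was mostly partial. Of the 154 genes that fell, 133 were still called above 0 h at 2 h and 10 were called below it, while 15.6% and 74.8% of all tested genes were called above and below 0 h; the choice of genes raised in the first hour enters this count. Of the 50 that fell by at least 2-fold, 30 were still above 0 h and 10 below. By 6 h the mean of 126 of the 154 was lower than at 2 h, as was that of 4649 of all 10026.

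Immediate-early transcription factors, which are switched on without new protein synthesis, held the 3 steepest declines among the genes named (Egr2, Egr1 and Egr3). Of 29 tested, 26 fell and 2 rose (Nr4a3 and Mafk), beside 59.4% and 15.4% of all genes. Their median log2 change was -0.999. Median-of-ratios scaling left 23 falling and 3 rising, beside 34.7% and 30.8% of all genes. Egr1, an immediate-early zinc finger factor, had 4.52, 4.12, 4.56 and 4.39 RPKM at 2 h, against 57.8, 96.3, 55.5 and 59.3 RPKM at 1 h. The groups were far apart, and the spread within 1 h came mainly from 1 library at 96.3 RPKM. The log2 change was -3.75 ± 0.14 (SE, adjusted p = 1.9e-13).

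Egr2, a relative of Egr1, had 6.23, 5.99, 5.29 and 4.67 RPKM at 2 h, against 89.3, 115, 83.5 and 89.9 RPKM at 1 h. No value at 2 h came near those at 1 h, and the log2 change of -3.97 ± 0.13 (SE, adjusted p = 3.8e-14) was the steepest fall among the genes named. Egr2 is not among the 434, because its 0 h mean was already 74.7 RPKM. Egr3 averaged 3.21 ± 0.897 RPKM at 2 h and 31.7 ± 4.8 RPKM at 1 h (SD, n = 4 each). Nr4a1, an orphan nuclear receptor, averaged 8.42 ± 2.00 RPKM at 2 h and 59.9 ± 11.7 RPKM at 1 h (SD, n = 4 each), after a 0 h mean of 1.28 RPKM. Fos and Junb, subunits of AP-1, fell less, with log2 changes of -1.37 and -1.16. Atf3, a repressor of the same leucine zipper class, fell by 0.79 on the log2 scale to a mean of 355 RPKM at 2 h, still above its 77.8 RPKM at 0 h. Mafk, a small Maf protein, rose by a log2 change of 1.35.

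Promoters of some steep fallers were read from RefSeq (GRCm38.p6, whose coordinates differ from the mm9 positions of the deposited tables). Those of Egr2 and 2 other steep fallers are shown because they carry letters known as the binding motif of a signal-activated factor. Promoters without a match were not printed, so the choice says nothing of fallers in general. Another RefSeq window of Egr2 with a CArG box is not printed. The capitals mark the CArG box bound by serum response factor (Egr2) and the cAMP response element TGACGTCA (Dusp1 and Btg2), searched on both strands in the 250 bases before the gene start.
Egr2 promoter, chr10:67537752-67537851, plus strand: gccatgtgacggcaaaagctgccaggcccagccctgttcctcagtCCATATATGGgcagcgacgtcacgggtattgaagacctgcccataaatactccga
Dusp1 promoter, chr17:26508563-26508660, minus strand: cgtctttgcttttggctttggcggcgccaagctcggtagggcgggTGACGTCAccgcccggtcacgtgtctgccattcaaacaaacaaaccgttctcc
Btg2 promoter, chr1:134079269-134079366, minus strand: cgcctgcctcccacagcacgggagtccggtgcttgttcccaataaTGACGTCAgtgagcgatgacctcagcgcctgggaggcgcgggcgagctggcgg
Over the 300-base windows of all 27025 RefSeq genes in the table, 1.81% held a CArG box and 2.03% the response element. Among the 8047 tested genes with a promoter the shares were 1.5% and 3.54%. A share among the fallers is not given, because only 37 of the 50 had a promoter in the table. A match is a description of letters and not a site.

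Inhibitors that act back on the LPS signal separated into several patterns. The mRNA decay factor Zfp36 (tristetraprolin, which binds AU-rich elements and speeds the decay of Tnf and other mRNAs) had 108, 126, 124 and 101 RPKM at 2 h, against 723, 919.5, 754 and 652 RPKM at 1 h. All 4 values at 2 h lay below the 0 h mean of 162 RPKM. From 0 h to 2 h the median log2 change of all tested genes was -0.69 as deposited, so a place below 0 h can depend on the scaling. The log2 change of Zfp36 in the second hour was -2.72 ± 0.10 (SE, adjusted p = 2.4e-13). Its relatives Zfp36l1 and Zfp36l2 fell by 1.78 and 1.81 on the log2 scale. Dusp1, a phosphatase that switches off p38 and JNK, had 44.2, 56.8, 50.8 and 46.2 RPKM at 2 h, against 185, 234, 216 and 198 RPKM at 1 h. The groups did not overlap, and the log2 change was -2.06 ± 0.08 (SE, adjusted p = 5e-13). Dusp2, another phosphatase of the class, rose instead, by a log2 change of 0.44 (adjusted p = 0.0022).

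The NF-kB inhibitors Tnfaip3, Nfkbiz and Nfkbia remained far above their 0 h levels. Tnfaip3 (A20, a ubiquitin-editing enzyme) averaged 467 ± 12.7 RPKM at 2 h and 704 ± 21.4 RPKM at 1 h (SD, n = 4 each), against 30.2 RPKM at 0 h. Nfkbiz, which encodes the nuclear protein IkBζ needed for a subset of NF-kB targets, fell by 0.96 on the log2 scale, with a mean of 304 RPKM at 2 h. Nfkbia, which encodes IkBα, averaged 1099.6 ± 54.8 RPKM at 2 h and 1246 ± 79.2 RPKM at 1 h (SD, n = 4 each); the fall of 0.18 on the log2 scale was called as deposited, and with median-of-ratios scaling the change was 0.11 and not called. Of 24 tested genes of NF-kB feedback and mRNA decay, 13 fell and 8 rose, beside 59.4% and 15.4% of all genes. The share that fell was thus not above that of all genes. Median-of-ratios scaling turned the balance to 10 and 11, beside 34.7% and 30.8% of all genes. Trib1, a pseudokinase, fell furthest in this list, to a mean of 3.01 RPKM at 2 h, against 27.5 RPKM at 1 h. Prdm1, the repressor Blimp-1, averaged 17.4 ± 2.02 RPKM at 2 h and 71.6 ± 2.16 RPKM at 1 h (SD, n = 4 each).

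**Figure D2:**
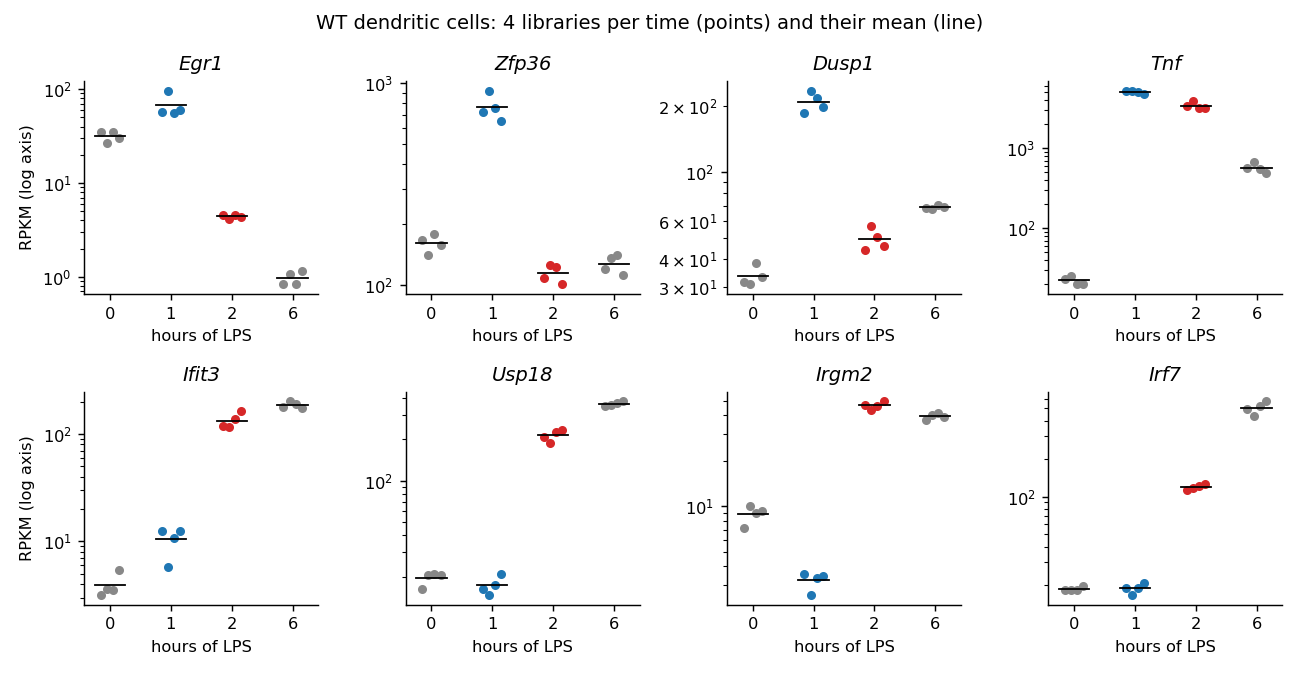
Points are RPKM (log axis) in each of 4 WT libraries at 0, 1, 2 and 6 h of LPS, with the mean as a line (1 h blue, 2 h red). Egr1, Zfp36, Dusp1 and Tnf (top) were lower at 2 h than at 1 h in all libraries, and Ifit3, Usp18, Irgm2 and Irf7 (bottom) were higher in all.

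Short AU-rich elements in the 3′ untranslated region mark mRNAs for rapid decay, and the nonamer TTATTTATT is a core of the sites bound by tristetraprolin. It stood in the longest annotated 3′ untranslated region (GENCODE M21) of 11 of 46 first-hour genes that fell by at least 2-fold (23.9%). The shares were 7 of 72 (9.72%) for first-hour genes that rose by that much and 14 of 85 (16.5%) for those not called. Among other genes that fell by at least 2-fold it was in 68 of 674 (10.1%). It was in 771 of 9724 tested genes with such a region (7.93%). Median lengths of these regions were 982, 1042, 900, 1299.5 and 1129 bases in the same order, and these shares are descriptions with no test. Among regions of 1 to 499 bases it was in 3 of 11 first-hour genes that fell by at least 2-fold. There it was in 5 of 25 that rose by that much and in 47 of 2524 tested genes. For the fallers and risers, counts were 3 of 13 and 1 of 11 at 500 to 999 bases, and 2 of 10 and 0 of 19 at 1000 to 1999. At 2000 to 3999 bases they were 2 of 10 and 0 of 12, and above that 1 of 2 and 1 of 5. Sites of 4 genes that fell and of Il27, which rose, are shown, with the nonamer in capitals, because they are the letters that the decay factor Zfp36 is known to read.
Zfp36 site: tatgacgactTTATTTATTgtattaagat
Dusp1 site: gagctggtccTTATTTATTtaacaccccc
Phlda1 site: tggattatgaTTATTTATTagttttttta
Tnf site: tttgcacttaTTATTTATTatttatttat
Il27 site: tcttggatatTTATTTATTtttaagaaat
The Tnf site runs on into further repeats of the same letters. Phlda1, which encodes a protein with a pleckstrin homology-like domain, fell by 2.69 on the log2 scale. Egr1, Egr2, Egr3 and Nr4a1, which fell further than Zfp36, Dusp1, Phlda1 and Tnf, had no nonamer in their annotated region.

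Cytokine mRNAs did not move as a block. Of 30 tested, 15 rose, 9 fell and 6 were not called, beside 15.4%, 59.4% and 25.2% of all genes. Tnf had 3354, 3845, 3146 and 3177 RPKM at 2 h, against 5171, 5184, 5048 and 4726 RPKM at 1 h. Every 2 h value was below every 1 h value, yet far above the 0 h mean of 22.4 RPKM. The log2 change was -0.58 ± 0.09 (SE, adjusted p = 2.5e-05). Osm (oncostatin M) and Lif, both of the interleukin 6 family, fell by 2.55 and 1.11 on the log2 scale. Il1a and Il1b averaged 1453 ± 162 and 4199 ± 396 RPKM at 2 h and 1549.8 ± 90.0 and 4702 ± 190 RPKM at 1 h (SD, n = 4 each), and neither was called.

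Genes of the interleukin 12 family rose, except Il23a, the p19 chain of interleukin 23, which was not called (log2 change 0.21, adjusted p = 0.065). Il27, which encodes the p28 chain of interleukin 27, had 219, 239.9, 246 and 207 RPKM at 2 h, against 25.1, 24.2, 25.6 and 23.7 RPKM at 1 h. The 4 libraries at 1 h were almost level, and the log2 change was 3.18 ± 0.11 (SE, adjusted p = 6e-14). Il12b, the shared p40 chain of interleukins 12 and 23, averaged 2463 ± 129 RPKM at 2 h and 997 ± 144 RPKM at 1 h (SD, n = 4 each). Il12a, the p35 chain, was far lower, with means of 3.25 RPKM at 2 h and 0.613 RPKM at 1 h, and passed the filter through the 2 h libraries alone. Il6 averaged 1443 ± 115 RPKM at 2 h and 885 ± 37.3 RPKM at 1 h (SD, n = 4 each; adjusted p = 4.7e-05). Tnfsf15, a TNF-family cytokine, rose by a log2 change of 2.06.

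Chemokines went both ways. Of 18 tested, 11 rose and 3 fell, beside 15.4% and 59.4% of all genes. With median-of-ratios scaling 14 rose and 1 fell, beside 30.8% and 34.7% of all genes. The neutrophil attractants Cxcl1 and Cxcl2, ligands of CXCR2, fell by 0.58 and 0.43 on the log2 scale, and with median-of-ratios scaling neither was called (-0.29 and -0.14). The ligands of CXCR3, which draw T cells, rose: Cxcl9, Cxcl10 and Cxcl11 by log2 changes of 2.60, 1.51 and 2.15. Cxcl10 was the most abundant of these, with 3464, 3308, 3125 and 3296 RPKM at 2 h, against 1322, 1062, 1149.5 and 1123 RPKM at 1 h. Ccl3 and Ccl4, which attract monocytes and T cells, also rose, and Ccl4 averaged 6929.9 ± 587 RPKM at 2 h and 3880.5 ± 242 RPKM at 1 h (SD, n = 4 each). Of 8 chemokine receptors tested 6 fell (beside 59.4% of all genes) and none rose, and with median-of-ratios scaling 4 fell; among the 6 were Ccr1 and Ccr2 with log2 changes of -1.43 and -1.23.

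Interferon-driven genes rose with few exceptions. The name stands for the lists used, and whether interferon drove their rise in these cells was not tested. Of 84 tested genes on lists of antiviral interferon-stimulated genes and immunity GTPases, 79 rose, 66 of them by at least 2-fold, against 15.4% and 3.88% of all genes. Only Gbp8 and Ly6a fell, and Ly6e, Ifitm1 and Ifitm6 were not called. Ly6a was not called with median-of-ratios scaling. In the first hour 32 of the 84 had been called higher, 16 of them by at least 2-fold, and 39 had been called lower. The shares of all tested genes in that hour were 12.3%, 4.33% and 69.4%. With median-of-ratios scaling 44 were called higher and 15 lower in that hour, while 6103 of all 10026 genes were called in either direction.

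Of the 79, 30 had already risen in the first hour and 49 started in the second, 41 of them by at least 2-fold. Over all tested genes 10.2% met that definition of a start, and 2.31% by at least 2-fold. Among the 49, 36 had been called lower in the first hour and 13 not called. Of the 8794 tested genes not called higher in that hour, 6960 were called lower. The median log2 change of the 49 in the first hour was -0.41, near the -0.40 of all tested genes, so their dip was close to that of the table as a whole. With median-of-ratios scaling 38 genes started, and 14 fell in the first hour and rose in the second. The median of the means of the 49 genes was 18.1, 11.96 and 46.4 RPKM at 0, 1 and 2 h, and of the 30 genes 12.1, 37.6 and 133 RPKM. By 6 h the mean of 46 of the 49 was above that at 2 h, and of 16 of the 30. Among all 10026 tested genes the mean of 4649 was lower at 6 h than at 2 h, so the count for the 30 is near that of all genes.

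**Figure D3:**
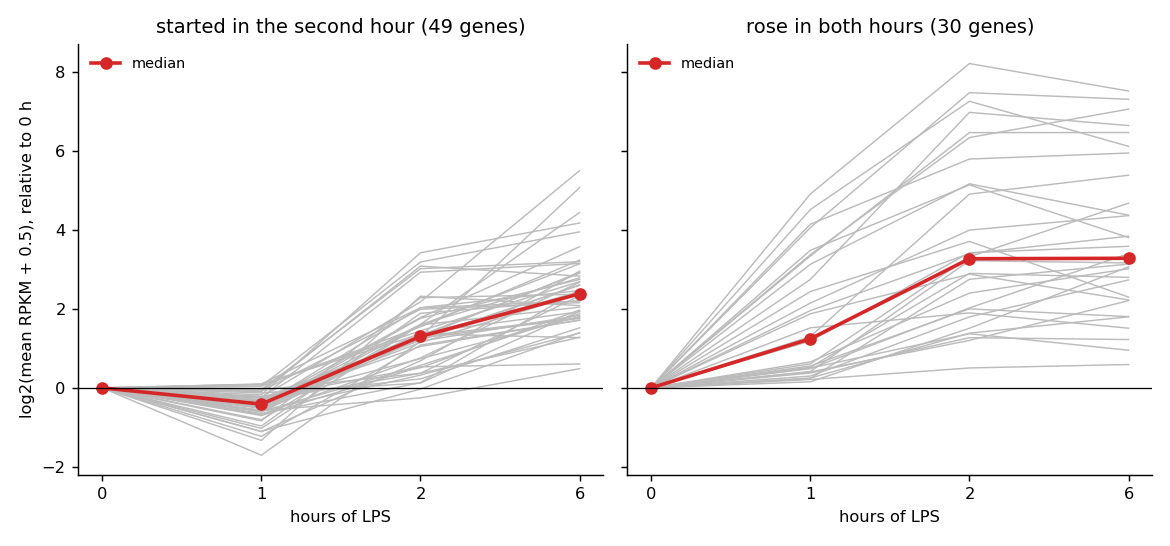
Each grey line is 1 interferon-driven gene, as log2(mean RPKM + 0.5 of 4 WT libraries) relative to 0 h, at 0, 1, 2 and 6 h of LPS (drawn evenly spaced, not to scale); the red line is the median. The 49 genes that started in the second hour (left) have a median below 0 at 1 h and above 0 at 2 h, and the median of the 30 that rose in both hours (right) is above 0 from 1 h.

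Promoters of 5 strong risers are shown, since the interferon-stimulated response element is the letters through which STAT2 and IRF9 are known to act. The capitals mark GAAA, any 2 bases and GAAA, read on either strand (on the other strand TTTC, any 2 bases and TTTC), in RefSeq windows of GRCm38.p6. A match that overlaps a marked one was not marked itself: in Irgm1 the last GAAA in capitals begins another match.
Ifit3 promoter, chr19:34583362-34583461, plus strand: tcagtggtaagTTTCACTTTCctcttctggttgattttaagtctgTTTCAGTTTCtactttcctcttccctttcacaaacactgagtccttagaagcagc
Rsad2 promoter, chr12:26456518-26456617, minus strand: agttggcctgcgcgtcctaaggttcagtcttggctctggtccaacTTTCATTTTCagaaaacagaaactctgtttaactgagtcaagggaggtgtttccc
Irgm2 promoter, chr11:58214868-58214967, plus strand: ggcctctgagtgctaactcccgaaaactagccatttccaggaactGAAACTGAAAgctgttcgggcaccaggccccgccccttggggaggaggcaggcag
Igtp promoter, chr11:58199477-58199555, plus strand: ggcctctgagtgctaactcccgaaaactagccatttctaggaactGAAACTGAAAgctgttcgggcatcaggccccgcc
Irgm1 promoter, chr11:48871421-48871495, minus strand: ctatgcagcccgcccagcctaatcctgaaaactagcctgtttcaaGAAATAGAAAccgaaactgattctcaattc
Of the 30 genes that rose in both hours 25 had a RefSeq promoter, and 14 of these (56%) held the element, against 326 of 8047 tested genes with a promoter (4.05%). The interferon-gamma element TTCNNNGAA stood in 4 of the 25 (16%), against 8.13% of the tested genes. The genes come from lists of known interferon-stimulated genes, so these shares describe the lists and not the second hour. For the 49 that started later the share is void, because only 36 had a promoter in the table. The 2 groups therefore cannot be compared for the element.

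Among genes that had risen in both hours, Rsad2 (viperin, an antiviral enzyme) had 1657, 1485, 1504 and 1398 RPKM at 2 h, against 189, 103, 168 and 149 RPKM at 1 h and a mean of 4.57 RPKM at 0 h. The log2 change was 3.34 ± 0.14 (SE, adjusted p = 6.7e-13). Cmpk2, a mitochondrial nucleotide kinase that lies beside Rsad2 on chromosome 12, had 512, 444, 503 and 519 RPKM at 2 h, against 32.6, 16.4, 27.2 and 26.9 RPKM at 1 h. Its log2 change of 4.27 ± 0.14 (SE, adjusted p = 5.2e-14) was the largest rise among the genes named. Ifit3, which encodes a protein that binds viral RNA complexes, had 118, 116, 137 and 162 RPKM at 2 h, against 12.5, 5.76, 10.8 and 12.6 RPKM at 1 h. In all 3 genes the second replicate at 1 h was the lowest, the same library that was highest for Egr1. Without it 47 interferon-driven genes started rather than 49.

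Among genes that started in the second hour, Usp18, a protease that removes ISG15 and dampens interferon receptor signalling, had 207, 189, 228 and 236 RPKM at 2 h, against 16.3, 14.6, 17.4 and 20.8 RPKM at 1 h. As deposited, its 0 h mean of 19.6 RPKM was within the 1 h range, and the log2 change of the second hour was 3.61 ± 0.10 (SE, adjusted p = 5.7e-15). Median-of-ratios scaling lowers 0 h levels against 1 h levels, so whether Usp18 rose before 1 h can depend on the scaling. Irgm2, an immunity-related GTPase that acts on vacuoles holding pathogens, had 46.9, 43.4, 46.1 and 49.4 RPKM at 2 h, against 3.56, 2.58, 3.35 and 3.43 RPKM at 1 h. Its 1 h values were below the 0 h mean of 8.89 RPKM, and the second hour brought a log2 change of 3.66 ± 0.09 (SE, adjusted p = 4.1e-15). Its relatives Igtp and Irgm1 rose by 3.13 and 3.20. Irgm2 and Igtp have near-identical stretches, as the printed promoters show, as do members of the Slfn, Oas1, Tgtp and interferon alpha families, and how the authors assigned shared reads is not given in the sources used here.

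The machinery of the interferon loop was measured beside its targets. Ifnb1, interferon beta, had 772, 872, 719.6 and 633 RPKM at 2 h, against 641, 584, 652 and 565 RPKM at 1 h, and was at 0.336 RPKM at 0 h. The ranges overlapped and the log2 change of 0.29 ± 0.17 (SE, adjusted p = 0.14) was not called as deposited, though it was with median-of-ratios scaling (0.58, adjusted p = 0.008). Its level at 1 h was already most of that at 2 h, and by 6 h its mean was 16.9 RPKM. Ifna4, an alpha interferon, had a log2 change of 0.52 (adjusted p = 0.0066).

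Irf7, the regulator that amplifies alpha interferon genes, had 113, 116, 122 and 125 RPKM at 2 h, against 18.9, 16.5, 18.8 and 20.6 RPKM at 1 h. As deposited, the 0 h mean of 18.5 RPKM lay within the 1 h range, and every 2 h value lay above it (log2 change 2.64 ± 0.07, SE, adjusted p = 7.9e-15). The limit given for Usp18 on a rise before 1 h holds for Irf7 too. Stat2 averaged 159.7 ± 8.94 RPKM at 2 h and 32.1 ± 2.48 RPKM at 1 h (SD, n = 4 each). Irf9 rose by a smaller log2 change of 0.95. Socs1, which inhibits JAK kinases, rose by 1.84, while its relatives Socs3 and Cish fell by 0.56 and 0.66 on the log2 scale. Ifngr1, a chain of the interferon gamma receptor, fell by 1.23. Of 23 tested receptor and JAK-STAT genes 9 rose and 9 fell, beside 15.4% and 59.4% of all genes. With median-of-ratios scaling 14 rose and 7 fell, beside 30.8% and 34.7% of all genes.

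Other functions of maturing dendritic cells were measured as well. Beside the counts that follow, 15.4% of all genes rose and 59.4% fell, or 30.8% and 34.7% with median-of-ratios scaling. Of 20 genes of costimulation and maturation 11 rose and 7 fell, and with median-of-ratios scaling 12 rose and 3 fell. Cd40, which receives help from T cells, averaged 225 ± 39.6 RPKM at 2 h and 86.4 ± 16.3 RPKM at 1 h (SD, n = 4 each), and Cd69, an activation marker, rose by a log2 change of 1.94. Cd83, a maturation marker, fell by 0.75. Of 18 genes of MHC class I and peptide loading 13 rose, among them the peptide transporter Tap1 (log2 change 1.21) and the immunoproteasome subunits Psmb8, Psmb9 and Psmb10 (0.16, 0.51 and 0.25). MHC class II had 0 of 13 called higher and 5 lower as deposited, and 8 higher and 1 lower with median-of-ratios scaling. Nos2, inducible nitric oxide synthase, rose by 2.57 on the log2 scale.

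Genes of Toll-like receptors were also measured. Tlr4, the LPS receptor, fell to a mean of 11.4 RPKM at 2 h, against 31.4 RPKM at 1 h, and Tlr2 fell by 0.77 on the log2 scale. Tlr3, a receptor for double-stranded RNA, rose by 1.57. Of 24 cell cycle genes 22 fell and 1 rose (Pcna), beside 59.4% and 15.4% of all genes, with a median log2 change of -0.75. With median-of-ratios scaling 18 fell and 2 rose, beside 34.7% and 30.8% of all genes. Bcl2l1, which encodes the survival protein BCL-xL, rose by 0.91, while its relative Mcl1 fell by 1.08.

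**Figure D4:**
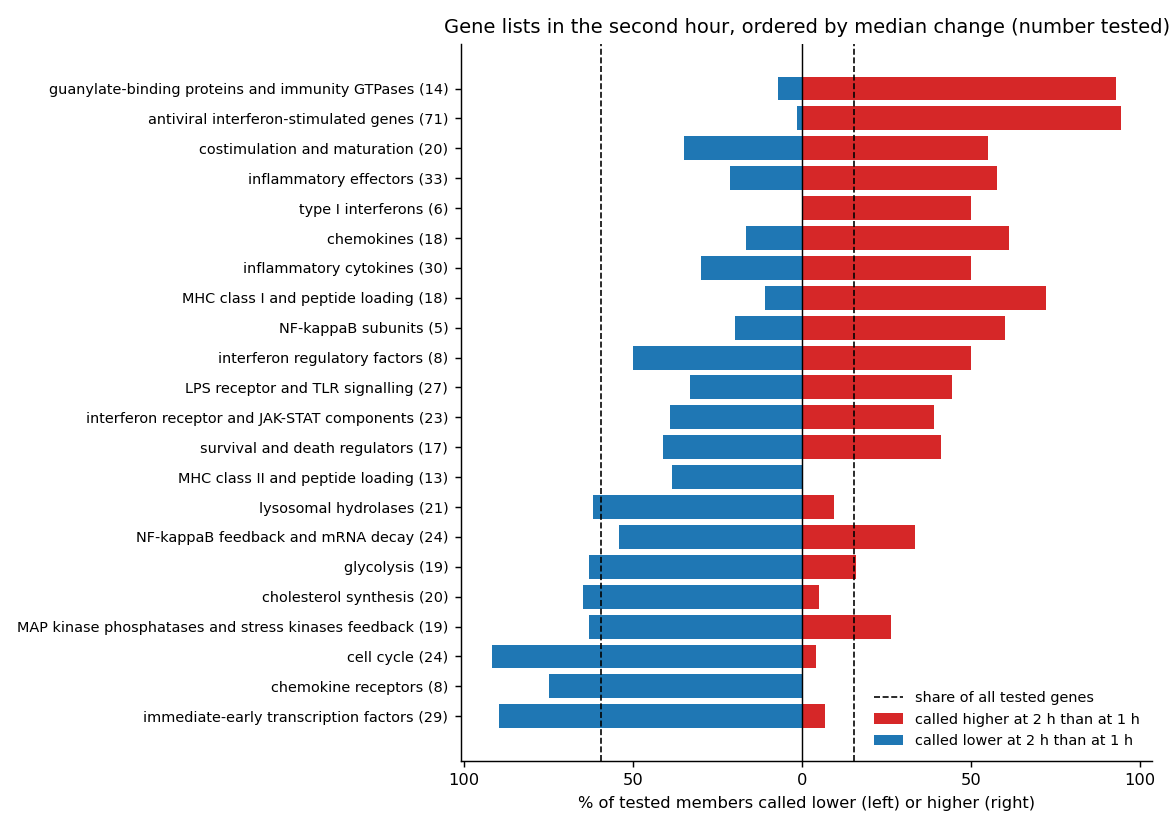
Bars give, for 22 gene lists ordered by median change (the most positive at the top), the percentage of tested members called higher (red, right) and lower (blue, left) at 2 h than at 1 h; dashed lines mark 15.4% and 59.4% for all tested genes. The 2 lists of interferon-driven genes stand at the top, and immediate-early transcription factors at the bottom.

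The same step was measured in dKO cells, in libraries shared with no WT group. Of the 16 dKO libraries, 5 lay nearest to the WT mean of another time than their label, and 3 of these are among the 8 dKO libraries at 2 h and 1 h. As labelled, limma called 0 genes (777 at an unadjusted p below 0.05), and 360 of the 389 genes that rose by at least 2-fold in WT cells had the same direction, as did 673 of the 755 that fell. Of the first-hour genes, all 50 that fell by at least 2-fold in WT cells had the same direction, and 49 of the 74 that rose (median log2 change 0.27 in dKO cells and 1.46 in WT cells). Without the 5 libraries, which left 2 libraries at 2 h and 3 at 1 h, 6246 genes (62.3%) were called, 1428 (14.2%) higher and 4818 (48.1%) lower, of which 440 (4.39%) and 735 (7.33%) by at least 2-fold. The libraries kept were selected for likeness to the WT profile of their time, which in part fixes the direction of the change, so the counts that follow are descriptions and not independent support. Then 388 of the 389 and all 755 had the direction of WT cells, 385 and 735 of them called. All 50 first-hour genes that fell by at least 2-fold and all 74 that rose by that much kept their direction, 46 and 74 of them called. Whether any gene changed differently in the 2 genotypes was not tested.

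**Figure D5:**
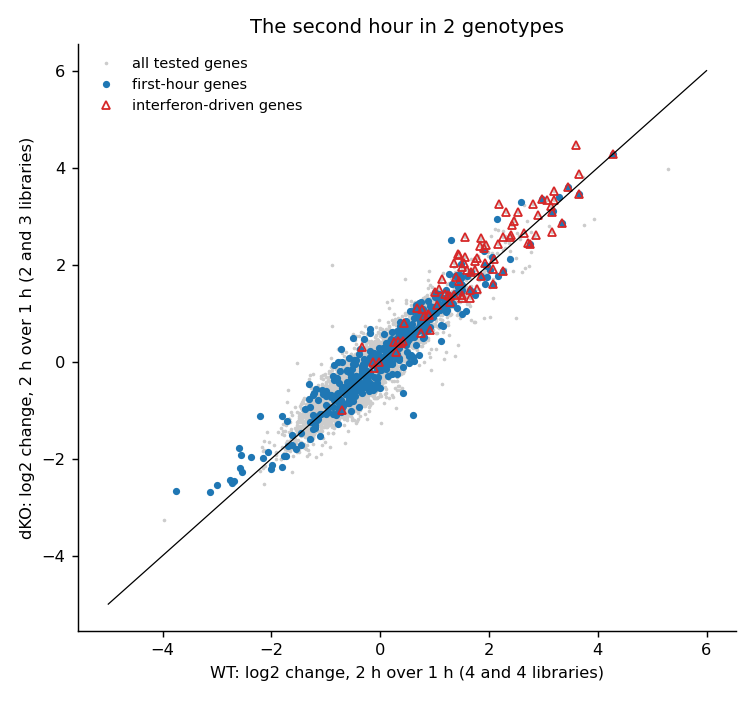
Each point is 1 tested gene; the x axis is the log2 change at 2 h over 1 h in WT cells and the y axis the same in dKO cells without the 5 libraries, with the line of equal change. First-hour genes (blue) and interferon-driven genes (red triangles) lie along the line; the dKO libraries plotted were selected for likeness to WT.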

How the data were processed

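The deposited tables hold 1 library each, with an RPKM value per gene that the authors scaled to gene length and library total, and a second deposited signal in whole numbers, read from its values as bases aligned to each gene and used for depth alone. CASAVA 1.8.2 and mm9 are named in the submitters' processing notes; the read assignment is not given in the sources used here. Precision rests on the spread between libraries, since counts are not in the tables.

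Groups came from the labels. A limma 3.58.1 model (R 4.3.3) with an intensity trend was fitted to log2(RPKM + 0.5) in the 16 WT libraries with 4 group means, and, for dKO, to its own 16 (or 11) libraries; p-values are two-sided and Benjamini-Hochberg adjusted over 10026 genes. The model was tested on simulated data with few changed genes, no shift of the whole table and no pairing of libraries. The real data differ in all of these, so that test does not cover them. Libraries with the same replicate number at 1 h and 2 h deviated together (correlations 0.162 to 0.29, against -0.228 to 0.084 for different numbers), so the numbers pair the libraries, and a block on them was an alternative. Other alternatives changed the pseudocount, scaling, filter, libraries and definitions.

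Genes named were the 20 highest and 20 lowest changes with non-overlapping groups and a mean of at least 5 RPKM, the 10 highest and 15 lowest among first-hour genes with at least 10 RPKM, and up to 6 members per list with any member that a statement needs; a selection is printed. The members and gene lists were chosen with earlier results of these data known.

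At the filter's edge, 453 genes reached 1 RPKM in 4 of the 8 libraries and were kept, and 220 reached it in 3 and were not. Spike-in controls (92) were left out.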

Additional observations from a re-analysis of the deposited data

Results flagged for a closer look

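Among 236 groups of 4 libraries for 118 genes taken from the lists and the naming rule, 12 had 1 library apart from the other 3 by more than a gap test allows; by chance about 1 in 20 such groups would. At 1 h, the second replicate was highest for Egr1 (96.3 RPKM, the others 55.5 to 59.3) and lowest for Irgm1 (15.9, the others 24.0 to 25.1) and Trim21 (3.03, the others 4.27 to 4.40). Other 1 h values apart were Cish at 299.6 RPKM in replicate 4 and Psmb9 at 102 RPKM in replicate 3. At 2 h, replicate 2 was apart for Egr3 (4.54 RPKM), Ifi47 (199.7), Tlr2 (394) and Tlr3 (2.82), replicate 3 for Ifna4 (26.1) and Zfp36l2 (6.60), and replicate 4 for Psmb8 (182).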

How the results depend on the processing

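Of 799 values for 47 genes named by the largest changes under 17 alternatives, 797 kept their call, 2 lost it in the fit of all 32 libraries, and 0 reversed. Genes picked for the largest changes were likely to keep their call, so these counts do not cover genes with smaller changes. Outside the 47, the calls of Nfkbia, Cxcl1, Cxcl2, Ly6a and Ifnb1 differed with median-of-ratios scaling. With the replicate block 7781 genes were called, 7480 of them the same as the 7502 without it, and no count moved by over 1.5 times.

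Median-of-ratios scaling gave 3085 genes higher and 3476 lower, 591 and 332 by at least 2-fold, and 373 first-hour genes that rose, with the first-hour genes defined anew under that scaling. Quantile normalization gave 2535 higher, 3634 lower, 279 lower by at least 2-fold and 291 first-hour genes that rose. A pseudocount of 1 left 468 genes lower by at least 2-fold. A filter at 5 RPKM, which tests fewer genes, left 3835 lower, 378 by at least 2-fold. A fit of all 32 libraries called 3526 genes, 790 higher and 2736 lower, with 56 first-hour genes that fell, 41 that rose and 321 not called, and 5150 genes for 1 h against 0 h; it includes the dKO libraries that lie nearest to another time. First-hour genes defined at 4-fold numbered 182, of which 78 fell (27 by at least 2-fold), 69 rose and 35 were not called. The dKO step went to 6246 genes called, against 0 as labelled, without the 5 libraries. Except where the tests or libraries were fewer, the cause was not tested.

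Leaving out 1 library at a time gave 7180 to 7461 genes called, 46 to 57 first-hour genes that fell by at least 2-fold and 47 to 51 interferon-driven genes that started. The values carry no read counts, so genes near 1 RPKM are the least certain.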

Other observations

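Some genes that changed lay outside the lists. Coch, known for the inner ear protein cochlin, averaged 12.1 ± 1.56 RPKM at 2 h and 0.45 ± 0.189 RPKM at 1 h (SD, n = 4 each), and reached 51.8 RPKM at 6 h. It passed the filter through the 2 h libraries alone and its fold moves with the pseudocount, so no fold is given. Hamp, which encodes the iron hormone hepcidin, averaged 75.3 ± 10.9 RPKM at 2 h and 7.38 ± 2.00 RPKM at 1 h (SD, n = 4 each), against 0.24 RPKM at 0 h. Edn1, the vasoconstrictor endothelin 1, rose by a log2 change of 1.97 and was back at 12.8 RPKM by 6 h, against 71.0 RPKM at 2 h. Among the steep falls, Lpin1, Irf2bp2 and Rab3il1 were lower at each later time of 0, 1 and 2 h, with Irf2bp2 at 40.4, 11.8 and 2.28 RPKM.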
